A study of Mus musculus with 6 samples.

Results

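The p53 target genes described here are 10 genes that the transcription factor p53 is known to activate: Cdkn1a, Mdm2, Bbc3, Btg2, Ccng1, Bax, Sesn1, Phlda3, Trp53inp1 and Gdf15. They were taken by symbol from a table of 23224 genes, and all 10 were among the 13058 genes that passed a filter on low counts. Polyadenylated RNA was sequenced from whole liver of 35 week old mice of a mixed C57BL/6J x 129SvJ background, with 3 livers per genotype, each from a separate, untreated mouse. PKM2 KO mice lack the M2 form of pyruvate kinase, a glycolytic enzyme, from the germline onward, and so in every cell type, and are called knockout below, and WT mice are the controls. The labels give no sex, litter or batch. In whole tissue, fewer cells of a type and less RNA per cell cannot be told apart.

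p53 is kept low in unstressed cells because MDM2, itself encoded by a p53 target gene, marks it for degradation. DNA damage, oncogene activity and metabolic stress free p53, which then binds a pair of similar decamers in DNA and activates genes for cell cycle arrest, apoptosis, antioxidant defence and its own feedback control. In liver, p53 is known as a tumour suppressor and as a regulator of lipid and glucose metabolism. Several of its targets are also induced by other signals: Gdf15 by the integrated stress response, Btg2 as an immediate early gene, and Cdkn1a by growth-inhibitory signals.

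The promoters of the members are shown first because p53 activates its targets by binding DNA. The members were taken by symbol and not by a search for a binding site. They are known p53 targets, so the shares below describe their windows and test nothing. RefSeq windows of 300 bases (250 before and 50 after a gene start, GRCm38.p6) were matched for 9 members, with 14 windows in all; for Trp53inp1 none was matched. The windows were searched on both strands for the p53 consensus decamer (purines, a C, A or T bases, a G, then pyrimidines). The pattern is its own reverse complement, so matches on the strands coincide. An exact decamer was present in windows of 5 of the 9 members (Cdkn1a, Mdm2, Ccng1, Bax and Sesn1), against 9.55% of the 27025 genes that have a window. A pair of decamers with a spacer of 0 to 13 bases and at most 1 mismatch was present for 3 members, Cdkn1a, Ccng1 and Bax, against 1.24% of genes. Pairs of decamers can overlap one another in these counts. In the sequences below, all 5′ to 3′ on the gene's strand, capitals mark the decamers.

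The pairs in Cdkn1a, Ccng1 and Bax and the closest pair in Sesn1 (2 mismatches) are given with the single decamer of Mdm2. Pairs with at most 2 mismatches were present for 4 of the 9 members, against 11.5% of genes. The Cdkn1a pair without spacer lies 51 to 32 bases before an upstream start of the gene and has 1 mismatch. A second Cdkn1a pair has no mismatch and a spacer of 12 bases, and shares a decamer with the first. The Ccng1 pair lies 195 to 176 bases, the Bax pair 212 to 192 bases, the Sesn1 pair 186 to 164 bases and the Mdm2 decamer 186 to 177 bases before the start. The 250 bases before the start are chr11:40755287-40755536 (−) for Ccng1, chr7:45466899-45467148 (−) for Bax and chr10:117710759-117711008 (−) for Mdm2.
Cdkn1a, no spacer: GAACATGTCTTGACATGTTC
Cdkn1a, spacer of 12: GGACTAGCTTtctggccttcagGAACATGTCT
Ccng1: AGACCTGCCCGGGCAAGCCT
Bax: AAGCATATCCcAGGCAAGCTT
Sesn1: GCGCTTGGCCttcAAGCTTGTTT
Mdm2: GAACTTGCCT

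The 250 bases before the start are printed in full for 3 members: Cdkn1a as the classical target, Sesn1 as the member whose livers did not overlap between genotypes, and Btg2 as the member with the lowest fold change. The Cdkn1a stretch is chr17:29090729-29090978 (+), the Sesn1 stretch chr10:41887189-41887438 (+) and the Btg2 stretch chr1:134079156-134079405 (−), all in GRCm38.p6. The windows of Btg2, Phlda3 and Gdf15 held neither an exact decamer nor a pair with at most 3 mismatches. This says only that these letters are not in these windows. Pairs with at most 3 mismatches were present for 5 of the 9 members, against 48.5% of genes, so the lack of one is common.
Cdkn1a, upstream start: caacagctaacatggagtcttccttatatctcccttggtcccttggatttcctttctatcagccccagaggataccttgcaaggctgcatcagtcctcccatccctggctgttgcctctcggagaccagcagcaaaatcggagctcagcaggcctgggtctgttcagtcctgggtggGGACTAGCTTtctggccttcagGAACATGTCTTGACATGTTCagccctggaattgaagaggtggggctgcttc
Sesn1, downstream start: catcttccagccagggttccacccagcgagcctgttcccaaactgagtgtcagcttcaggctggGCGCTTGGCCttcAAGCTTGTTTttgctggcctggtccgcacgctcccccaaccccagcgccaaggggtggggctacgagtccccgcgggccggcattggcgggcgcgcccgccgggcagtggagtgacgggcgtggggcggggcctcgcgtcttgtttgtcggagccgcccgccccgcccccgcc
Btg2: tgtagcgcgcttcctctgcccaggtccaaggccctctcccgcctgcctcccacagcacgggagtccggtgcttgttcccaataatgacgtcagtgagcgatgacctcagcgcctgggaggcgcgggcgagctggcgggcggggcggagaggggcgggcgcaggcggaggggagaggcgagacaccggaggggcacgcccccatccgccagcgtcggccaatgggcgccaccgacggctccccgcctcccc

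Some facts of the libraries bear on the values below. Library totals ran from 27727048 to 36125711 expected counts, and levels are given as counts per 1000000 (CPM) with TMM scaling. The targeted gene, listed under its older symbol Pkm2 with its splice forms summed, was at 6.31 to 9.65 CPM in knockout and 15.9 to 26.6 CPM in WT livers (log2 fold change -1.47, adjusted p = 0.314 in edgeR's quasi-likelihood test). WT 1 and WT 2 stood apart in 10 pancreatic acinar genes, whose summed level was 3130 and 8990 CPM there, 31.8 CPM in WT 3 and 33.4 to 60 CPM in knockout. WT 2 also had the highest sum over 11 acute phase genes (28900 CPM, against 16300 in WT 3, 8760 in WT 1 and 9130 to 12900 in knockout) and the lowest share of Alb, the serum albumin transcript, at 4.06% of its counts (6.93% to 8.56% elsewhere). Hepatocyte markers were abundant in every library, with a sum over 8 genes of 75500 to 116000 CPM. Sums over 7 neutrophil markers were 8.29, 17.7 and 11.4 CPM in WT livers 1, 2 and 3 and 5.1 to 6.48 CPM in knockout. Those over 8 macrophage markers were 313 to 335 and 254 to 290 CPM. Sums over 8 cholangiocyte markers were 45.3, 62.4 and 49.7 CPM in WT livers 1, 2 and 3 and 42.7 to 44.3 CPM in knockout. The defining markers Clec4f, S100a8 and Krt19 were above 0 in every liver. S100a8 was near the floor, with 6, 12 and 5 counts in knockout livers 1, 2 and 3 and 6 in WT 1. Krt19 was at 0.724 to 1.12 CPM in knockout and 1.14 to 5.08 CPM in WT livers. The part of these cells in the p53 target values was not tested.

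Knockout and WT livers overlapped for 9 of the 10 p53 target genes. None passed an adjusted p of 0.05 in edgeR's quasi-likelihood test, where 0.023% of all tested genes did (3 of 13058), and none passed in DESeq2, which called 0.681% of the genes it adjusted, or in limma voom, which called 0.0383%. An unadjusted p under 0.05 was reached by 1 higher member, Sesn1, where 2.87% of all tested genes were higher at that p, and by 1 lower member, Btg2, where 4.37% were lower. Log2 fold changes, PKM2 KO over WT, ran from -0.88 for Btg2 to 0.86 for Gdf15. They were positive for 8 of 10 members, where 47.6% of all tested genes were positive, and their median was 0.22 where that of all tested genes was -0.01. For 1 member, Sesn1, every knockout liver lay above every WT liver, as for 5.8% of all tested genes, and for none did every knockout liver lie below (6.27%). The members were chosen with earlier results of these livers known, so these counts describe them and test nothing.

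**Figure D1:**
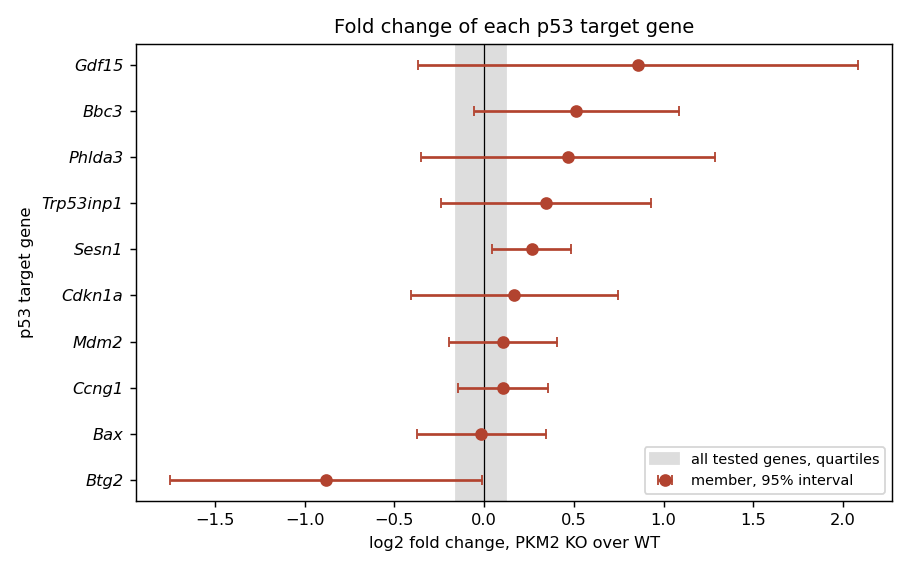
Log2 fold change of each of the 10 p53 target genes, PKM2 KO over WT (points), with the 95% interval of edgeR's quasi-likelihood fit (bars); the grey band spans the quartiles of all 13058 tested genes. Gdf15 (0.86) and Btg2 (-0.88) lie farthest from 0 with wide intervals, and Sesn1 (0.27) has the narrowest interval.

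Genes of cell cycle arrest gave a mixed picture. Cdkn1a encodes p21, the inhibitor of cyclin-dependent kinases through which p53 halts the cell cycle. Its level was 5.41, 4.66 and 3.37 CPM in knockout livers 1, 2 and 3 and 5.11, 3.43 and 3.44 CPM in WT livers 1, 2 and 3. The genotypes overlapped fully: PKM2 KO 1 and WT 1 were the highest livers, and PKM2 KO 3 was the lowest of all. With 110 to 157 counts per library, the mean was 4.483 ± 1.03 CPM in knockout and 3.992 ± 0.971 CPM in WT (SD, n = 3 each). The log2 fold change was 0.17 (SE 0.246, 95% interval -0.41 to 0.74, edgeR adjusted p = 0.929), so the interval spans 0.755-fold to 1.67-fold. The value was 0.02 without PKM2 KO 1 and 0.39 without WT 1. In the GRCm38 gene annotation, 7.68% of the exon bases of Cdkn1a are shared with a gene on the opposite strand, and the sources used here do not say whether the counting used strand.

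Btg2, an antiproliferative gene that is also an immediate early gene, was the member with the largest downward value. It was at 8.55, 7.21 and 5.11 CPM in knockout livers 1, 2 and 3 and at 6.15, 15.7 and 16.4 CPM in WT livers 1, 2 and 3. WT 2 and WT 3 were high, while WT 1 lay inside the knockout range. The mean was 6.956 ± 1.73 CPM in knockout and 12.77 ± 5.74 CPM in WT (SD, n = 3 each), 1.84 times as high in WT. The log2 fold change was -0.88 (SE 0.371, 95% interval -1.75 to -0.01), with an unadjusted p of 0.0475 and an adjusted p of 0.683 in edgeR. It was -1.203 without WT 1, -0.70 without WT 2 and -0.65 without WT 3, at adjusted p values of at least 0.085 over all alternatives run. WT 2 and WT 3, the livers with high Btg2, were also those with the highest acute phase and neutrophil sums, and the part of either in Btg2 was not tested.

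Ccng1, the cyclin G1 gene, is a strong p53 target in mouse tissues and acts in feedback on p53. It varied little, at 46.1, 49.3 and 43.8 CPM in knockout livers and 47.2, 41.1 and 41.2 CPM in WT livers. WT 1 lay among the knockout livers and the other two WT livers just below them. The log2 fold change was 0.11 (SE 0.107, 95% interval -0.15 to 0.36, edgeR adjusted p = 0.893), which spans 0.905-fold to 1.28-fold. Mdm2, the ubiquitin ligase that closes the main feedback loop, was at 20, 24 and 19.3 CPM in knockout livers and 20.9, 17.3 and 20.6 CPM in WT livers. Its genotypes overlapped, with a log2 fold change of 0.11 (SE 0.128, 95% interval -0.19 to 0.41), and 0.0055 without PKM2 KO 2. PKM2 KO 2 was the highest and WT 2 the lowest liver for both feedback genes.

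**Figure D2:**
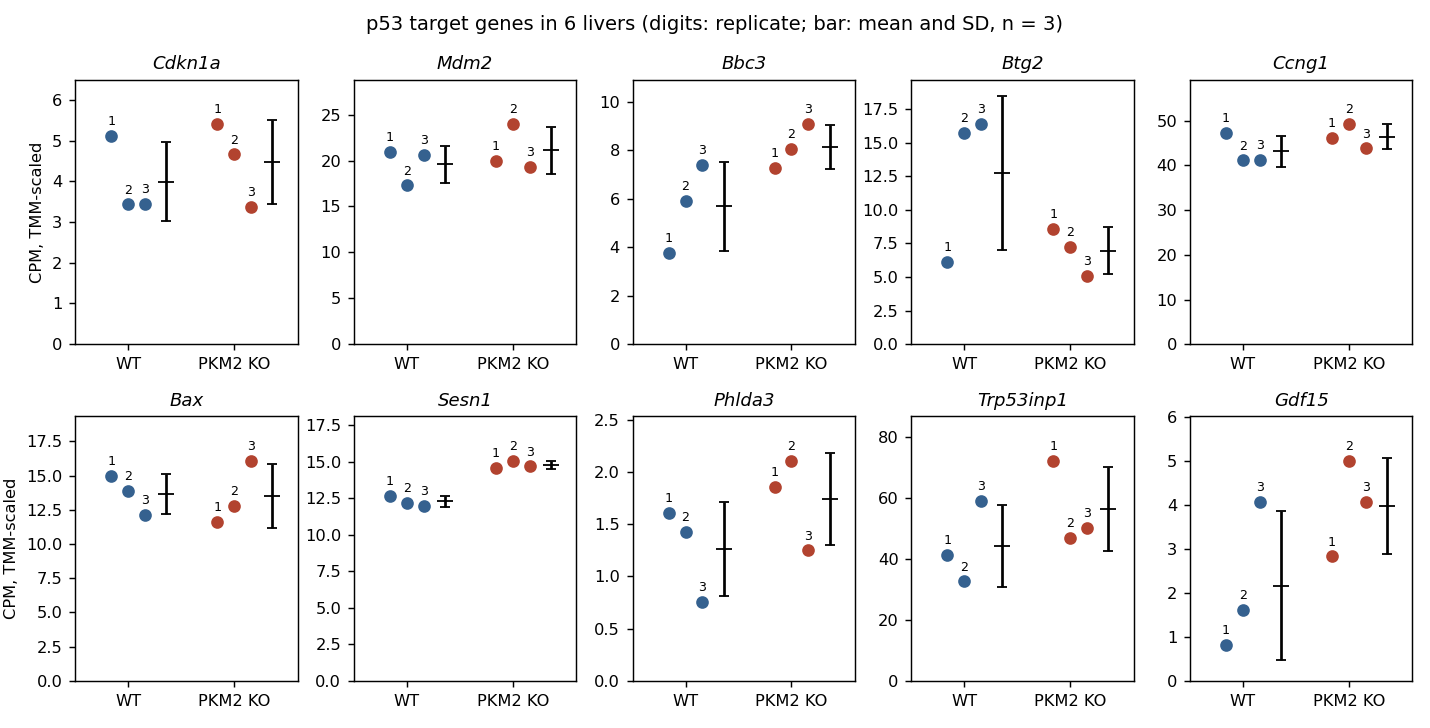
TMM-scaled CPM of each p53 target gene in the 3 WT (blue) and 3 PKM2 KO (red) livers, labelled by replicate number, with the mean and SD of each genotype beside the points; every axis starts at 0 and has its own scale. Sesn1 is the member whose groups do not overlap, and Gdf15 of WT 3 (4.06 CPM) sits among the knockout livers.

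Apoptosis genes differed from one another. Bbc3, which encodes the BH3-only protein PUMA, was at 7.27, 8.05 and 9.09 CPM in knockout livers 1, 2 and 3 and at 3.75, 5.92 and 7.39 CPM in WT livers 1, 2 and 3. WT 1 and WT 2 were the lowest livers, and WT 3 lay just above PKM2 KO 1. The mean was 8.139 ± 0.912 CPM in knockout and 5.687 ± 1.83 CPM in WT (SD, n = 3 each), 1.43 times as high in knockout. Its log2 fold change was 0.51 (SE 0.245, 95% interval -0.06 to 1.09, edgeR adjusted p = 0.726). It was 0.30 without WT 1, 0.75 without WT 3 and 0.14 when WT 3 was the only WT liver. WT 1 and WT 2, the livers low in Bbc3, are those with high pancreatic acinar sums. The part of these transcripts in the value was not tested.

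Bax, the pore-forming protein of the outer mitochondrial membrane, showed no such order. It was at 11.6, 12.8 and 16.1 CPM in knockout livers and 15, 13.9 and 12.1 CPM in WT livers, so the highest and the lowest liver were both knockout. Its log2 fold change was -0.01 (SE 0.154, 95% interval -0.37 to 0.34), and its sign changed under 5 of 18 alternatives. A part of its exon bases, 12.2%, is shared with another gene annotated on the same strand. Trp53inp1, a stress-induced nuclear protein that promotes p53 activity and autophagy, was at 72.4, 46.9 and 50.2 CPM in knockout livers and 41.4, 32.7 and 59.1 CPM in WT livers. WT 3 was the second highest liver and WT 2 the lowest. This gave a log2 fold change of 0.35 (SE 0.25, 95% interval -0.24 to 0.93, edgeR adjusted p = 0.814), and 0.13 without PKM2 KO 1. Phlda3, which restrains AKT signalling by competing for membrane lipids, had 28 to 68 counts per library and a counting error of about 14.6%. It was at 1.86, 2.11 and 1.25 CPM in knockout livers and 1.61, 1.43 and 0.758 CPM in WT livers. WT 3 was lowest and PKM2 KO 3 lay below the other WT livers. Its log2 fold change was 0.47 (SE 0.351, 95% interval -0.35 to 1.29), which was 0.20 without WT 3 and 0.68 without WT 1.

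Sesn1, a sestrin that limits oxidative stress and mTORC1 activity, had the lowest coefficient of variation of the members within each genotype and was the one whose genotypes separated. Across all 6 livers it varied 1.26-fold and Ccng1 1.2-fold. It was at 14.6, 15.1 and 14.7 CPM in knockout livers 1, 2 and 3 and 12.7, 12.2 and 12 CPM in WT livers 1, 2 and 3. Every knockout liver was above every WT liver. The mean was 14.8 ± 0.277 CPM in knockout and 12.31 ± 0.355 CPM in WT (SD, n = 3 each), a ratio of 1.2. The livers of a genotype varied by 1.87% in knockout and 2.89% in WT, less than the 4.82% that counting error alone gives at its mean of 430.7 counts. The log2 fold change was 0.27 (SE 0.0942, 95% interval 0.05 to 0.49), with an unadjusted p of 0.0239 and an adjusted p of 0.637 in edgeR. It was between 0.25 and 0.31 under every alternative run, WT 3 as the only WT liver included. It did not pass the adjusted threshold in any of them (lowest adjusted p 0.227).

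Gdf15, a secreted stress hormone of the TGF-beta family that reduces appetite, varied most, 6.09-fold between the lowest and the highest liver. It was at 2.83, 5.01 and 4.07 CPM in knockout livers 1, 2 and 3 and at 0.822, 1.62 and 4.06 CPM in WT livers 1, 2 and 3. WT 1 and WT 2 were low, and WT 3 lay within the knockout range. The exact Poisson 95% intervals, which cover counting error only, were 0.521 to 1.23 CPM in WT 1, from 23 counts, and 3.44 to 4.76 CPM in WT 3, from 150 counts, and did not overlap. The mean was 3.969 ± 1.09 CPM in knockout and 2.167 ± 1.69 CPM in WT (SD, n = 3 each), with a log2 fold change of 0.86 (SE 0.525, 95% interval -0.37 to 2.08, edgeR adjusted p = 0.782). Leaving out livers moved it to 1.70 without WT 3, 0.48 without WT 1 and -0.03 when WT 3 was the only WT liver. WT 1 and WT 2, the livers low in Gdf15, are those with pancreatic acinar transcripts, and their part in the value was not tested.

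**Figure D3:**
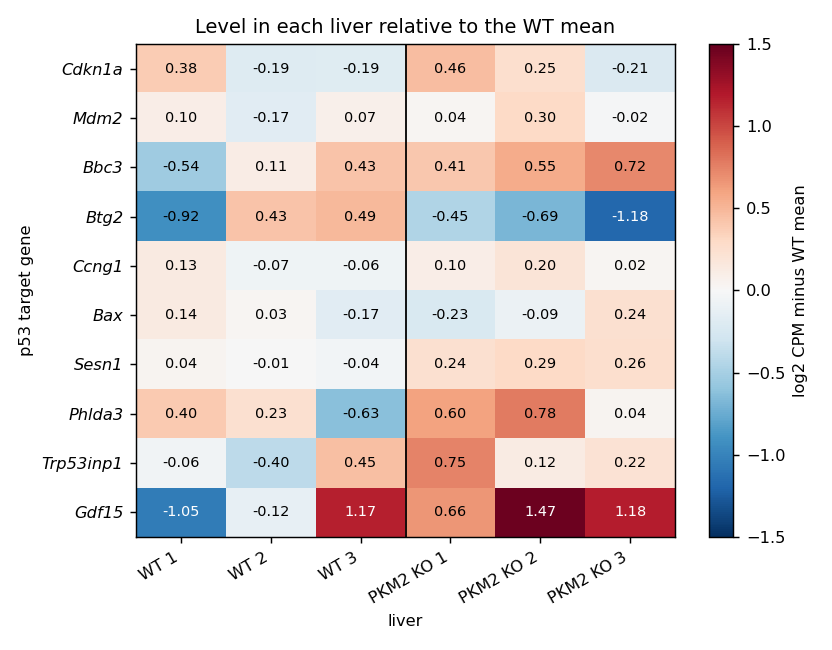
Level of each p53 target gene in each liver as log2 CPM (prior count 2) minus the WT mean of that gene; red is above and blue below, and the line separates the genotypes. WT 1 is low for Gdf15 (-1.05), Btg2 (-0.92) and Bbc3 (-0.54) and WT 3 is high for Gdf15 (1.17).

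Viewed by liver, the members differed in which livers were highest and lowest. Their median lay higher in each knockout liver than in each WT liver. On log2 CPM relative to the WT mean, the median over the 10 members was 0.324, 0.271 and 0.131 in knockout livers 1, 2 and 3 and 0.071, -0.038 and 0.019 in WT livers 1, 2 and 3. The median over all tested genes was between -0.009 and 0.008 in every liver. Above the WT mean lay 8, 8 and 7 of the 10 members in knockout livers 1, 2 and 3, and 6, 4 and 5 in WT livers 1, 2 and 3. The reference is the WT mean itself, which centres each gene's WT values on 0 by construction. PKM2 KO 2 was the highest liver for 5 members and the lowest for none. WT 2 was the lowest liver for 3 members, Mdm2, Ccng1 and Trp53inp1, and the highest for none. Gdf15 and Bbc3 shared their 2 lowest livers, WT 1 and then WT 2. Cdkn1a, Mdm2, Ccng1 and Bax each had their second highest level in WT 1 instead. The members' median coefficient of variation was 27.2% among WT and 20.2% among knockout livers, where the medians of all tested genes were 15.9% and 10.2%. It lay below the median of all tested genes for 4 of 10 members in WT (Sesn1, Ccng1, Mdm2 and Bax) and for 2 in knockout (Sesn1 and Ccng1). The comparison was not matched for expression level. Counting error alone ran from 2.49% for Trp53inp1 to 14.6% for Phlda3 among the members.

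**Figure D4:**
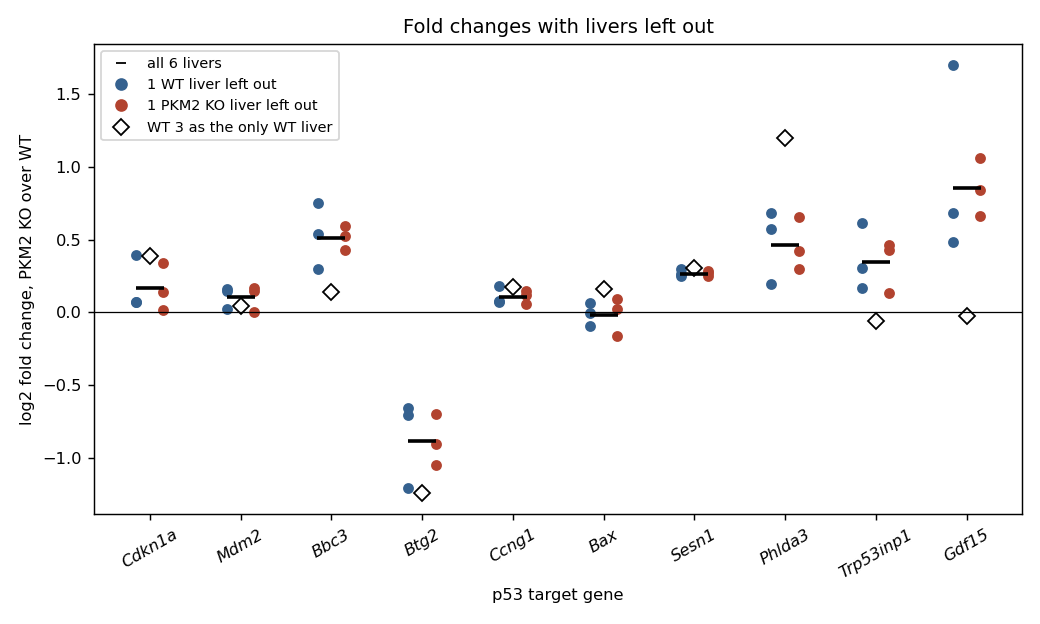
Log2 fold change of each p53 target gene with all 6 livers (black bar), with 1 WT (blue) or 1 knockout (red) liver left out, and with WT 3 alone as WT (diamond). Sesn1 stays between 0.25 and 0.31, while Gdf15 runs from -0.03 to 1.70.

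With WT 3, which held few acinar transcripts, as the only WT liver, the members' log2 fold changes ran from -1.24 for Btg2 to 1.198 for Phlda3, and 7 of 10 were positive with a median of 0.15. Phlda3 and Cdkn1a (0.39) then had larger positive values than with all livers, and Bbc3 (0.14), Trp53inp1 (-0.06) and Gdf15 (-0.03) smaller ones. None of the 10 was called in that fit, which called 1.19% of all genes. In it 4 of 10 members had no overlap, where 66.9% of all tested genes had none. It assumes that the lone WT liver would vary as the knockout livers do.

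No difference between genotypes was called for genes upstream of the targets. Trp53, which encodes p53 itself, was at 15.8, 15.6 and 15.7 CPM in knockout and 15.1, 17.9 and 16.6 CPM in WT livers (log2 fold change -0.08, SE 0.103, edgeR adjusted p = 0.923). Mdm4, the MDM2 partner that inhibits p53, was at 0.04 (SE 0.228). Of 18 listed regulators of p53, 15 were tested, and none was called in edgeR, DESeq2 or limma voom. None reached an unadjusted p under 0.05 in edgeR, where 2.87% of all tested genes were higher and 4.37% lower at that p. Their log2 fold changes ran from -0.56 for Trp53rk (95% interval -1.41 to 0.30), a kinase gene, to 0.35 for the checkpoint kinase gene Chek2. The median was 0.04. The DNA damage kinase genes Atm and Atr had the smallest p values, at 0.28 (SE 0.125) and 0.26 (SE 0.119), with adjusted p values of 0.71 and 0.718 in edgeR. The deubiquitinase gene Usp7 had the highest CPM of the list and was at 0.10.

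A wider list of 61 other p53 targets did not show the members' upward median. Of its 58 tested genes 31 had a positive log2 fold change (53.4%, against 47.6% of all tested genes) and the median was 0.03. None was called in edgeR, where 3 higher and 3 lower genes had an unadjusted p under 0.05. Of all tested genes, 2.87% were higher and 4.37% lower at that p. Genotypes were without overlap for 4 higher and 3 lower genes, where 5.8% and 6.27% of all tested genes were higher and lower without overlap. In DESeq2 1 gene of the wider list was called, Slc19a2, where 0.681% of the genes it adjusted were called.

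By role, arrest and feedback targets had 5 of 8 positive. Gadd45a, a DNA damage response gene, was at 4.41, 4.91 and 4.23 CPM in knockout and 9.26, 8.06 and 4.57 CPM in WT livers (log2 fold change -0.69, edgeR adjusted p = 0.658), with WT 3 inside the knockout range. The polo-like kinase genes Plk2 and Plk3, the latter with the highest CPM of the list, were at -0.39 and -0.14. When WT 3 was the only WT liver, Plk2 was at -1.05 and was called (adjusted p = 0.0404 in edgeR). That call rests on WT 3, at 19.2 CPM, since WT 1 (8.69 CPM) and WT 2 (8.53 CPM) lay close to the knockout livers (8.66 to 9.95 CPM). Apoptosis targets had 8 of 15 positive. In this group Eda2r, an ectodysplasin receptor gene, was at 0.64, Fas, the death receptor gene, at -0.24, and Ei24, with the highest CPM, at 0.07. DNA repair and nucleotide supply targets had 5 of 9 positive, with Fancc of the Fanconi anaemia pathway at 0.48, the translesion polymerase gene Polh at -0.31 and the replication clamp gene Pcna at 0.05.

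Among targets in metabolism, redox balance and autophagy, 7 of 13 had a positive log2 fold change and 2 were higher in every knockout liver, as were 5.8% of all tested genes. The gene listed as 9630033F20Rik, the older symbol of Tigar, encodes a fructose bisphosphatase that directs glucose carbon away from glycolysis. It was at 13.4, 13.5 and 14.1 CPM in knockout and 12, 10.9 and 8.93 CPM in WT livers (log2 fold change 0.37, SE 0.133, unadjusted p 0.0272 and adjusted p 0.649 in edgeR). Aldh4a1, an enzyme of proline breakdown, was at 646, 655 and 609 CPM in knockout and 609, 502 and 501 CPM in WT livers, where PKM2 KO 3 and WT 1 differ by less than the rounding (log2 fold change 0.25, adjusted p = 0.767 in edgeR). The glutathione peroxidase gene Gpx1, with the highest CPM, was at 0.08.

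Signalling and secreted targets had 6 of 13 positive and held the smallest p of the wider list. Slc19a2, a thiamine transporter gene, was at 135, 138 and 128 CPM in knockout livers and 83.6, 84.9 and 94.5 CPM in WT livers. Every knockout liver lay well above every WT liver. Its log2 fold change was 0.61 (SE 0.107), with an adjusted p of 0.401 in edgeR and 9.45e-05 in DESeq2. Rap2b, a small GTPase gene, was at -0.55 without overlap (adjusted p = 0.62 in edgeR). The antiproliferative gene Tob1, a relative of Btg2 and the gene with the highest CPM of this list, was at 171, 148 and 103 CPM in knockout and 107, 83.9 and 95.1 CPM in WT livers (log2 fold change 0.56, adjusted p = 0.637 in edgeR), the opposite sign to Btg2.

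**Figure D5:**
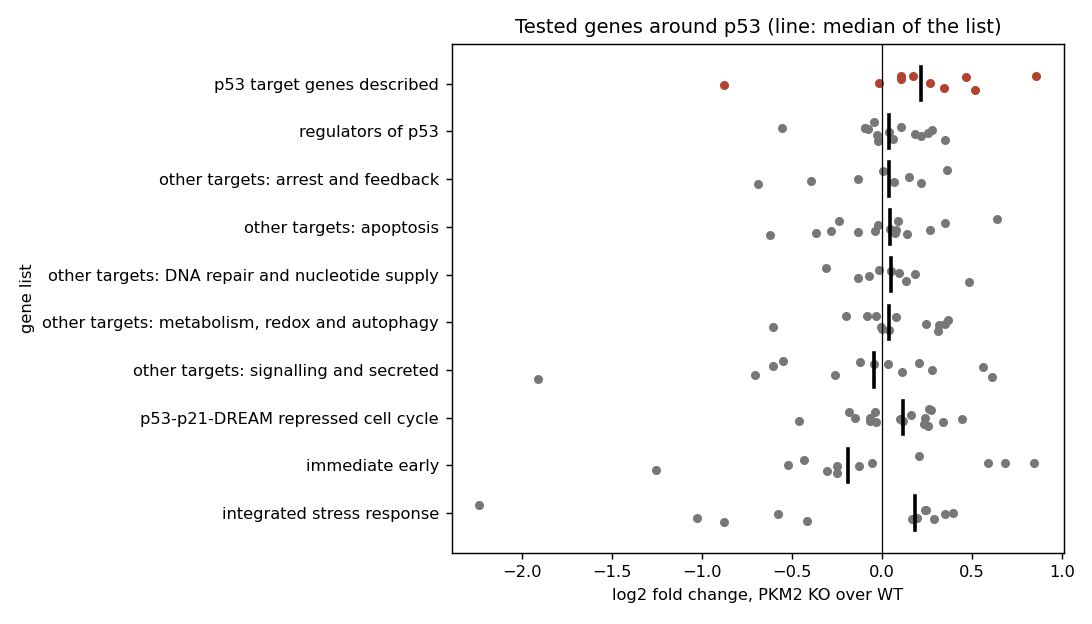
Log2 fold changes, PKM2 KO over WT, of the tested genes of each list (points, spread vertically at random) with the list's median (line). The 10 p53 target genes described here have a median of 0.22, and the 5 lists of other targets have medians between -0.04 and 0.05.

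Genes that the p53-p21 axis represses through the DREAM complex, which drive DNA replication and mitosis, had 10 of 17 tested members positive, a median log2 fold change of 0.12 and none called. Mcm3, a subunit of the replicative helicase, was at 5.14, 5.38 and 4.96 CPM in knockout and 4.25, 4.42 and 4.44 CPM in WT livers (log2 fold change 0.24, adjusted p = 0.763 in edgeR), without overlap. The survivin gene Birc5 was at 0.45, and Tyms, the thymidylate synthase gene with the highest CPM, at -0.07. The median was -0.16 without PKM2 KO 1.

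Other programmes that share members with the p53 targets were set beside Btg2 and Gdf15. Immediate early genes, to which Btg2 also belongs, had 4 of 12 tested genes positive and a median of -0.19, which was 0.03 without WT 2. Zfp36, which destabilises cytokine mRNAs and has the highest CPM of the list, had no overlap between genotypes. It was at 50.1, 71.1 and 50.4 CPM in knockout and 29.6, 41 and 36.3 CPM in WT livers (log2 fold change 0.68, SE 0.183, adjusted p = 0.566 in edgeR). The phosphatase gene Dusp1 was at 0.84 (SE 0.345). Both are among the 4 positive genes of the list, and the other 8 have the sign of Btg2. The part of this programme in Btg2 was not tested. Integrated stress response genes, a programme that also induces Gdf15, had 7 of 12 positive and a median of 0.18. In it Atf5, a transcription factor gene of liver, was at -0.42 without overlap (adjusted p = 0.637 in edgeR). Asns, the asparagine synthetase gene, was at 0.999, 3.61 and 6.32 CPM in knockout and 3.58, 16 and 32.1 CPM in WT livers. Its log2 fold change was -2.24 (adjusted p = 0.653 in edgeR). Atf4, another transcription factor gene, was at 0.24 and higher in every knockout liver (adjusted p = 0.718 in edgeR), as were 5.8% of all tested genes. The 7 positive genes of the list have the sign of Gdf15, and 5 have the opposite sign. The part of this programme in Gdf15 was not tested. Cth, the gene with the highest CPM of that list and an enzyme of cysteine synthesis, was at 0.29.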

How the data were processed

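The authors deposited a table of RSEM expected counts, 1 row per gene and 1 column per liver, with no scaling between libraries. Per the submitters' processing notes, Bowtie 1.0.1 and RSEM 1.2.12 were used with build mm9; annotation and strandedness are not given in the sources used here. RSEM divides reads among the transcripts they match, and 21.2% to 23.8% of values per library were not whole. Counts were rounded, filtered with filterByExpr, scaled by TMM and tested with edgeR 4.0.16 (R 4.3.3) by quasi-likelihood, fitting genotype alone to all 6 livers, with Benjamini-Hochberg adjustment over 13058 genes at 0.05. The SE is the absolute log2 fold change over the square root of F. Alternatives used DESeq2 1.42.0, limma 3.58.1 (voom), other scalings and filters, and livers left out. No pair of libraries was alike enough to be 1 sample (chi-square per gene at least 31.39). The fit was also run on simulated counts over 12951 genes of this comparison. It called 55% of 100 genes simulated with a log2 difference of 1 and 98% of 99 with a difference of 2. The simulation gave each gene the average spread of genes at its level and all livers of a genotype the same mean apart from depth. It held no liver that stands apart, so its shares need not hold for these livers. Changes smaller than 1 were not simulated. The members and gene lists were chosen with earlier results of these data known. Besides the members and Pkm2, named genes are Trp53, Mdm4 and, per list, the 2 smallest p values and the highest CPM, with any listed gene past the threshold and those marking a library. Clec4f, S100a8, Krt19, Trp53rk, Chek2 and Atf4 were chosen after their values were seen. The result of 1 listed gene is not reported here. Of the listed genes, Trac and Ly6g were not matched, and 2 (Pidd as Lrdd, Adgre1 as Emr1) were matched by an older symbol. Promoter windows and symbols came from RefSeq (GRCm38.p6), exon overlaps from GENCODE, a different build from mm9. Plots were drawn with matplotlib 3.10.9.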

Additional observations from a re-analysis of the deposited data

How the results depend on the processing

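None of the 10 members was called under any of the 18 alternatives. Of 180 values of single members, 173 kept their sign. Bax turned positive with library totals (0.0087), without PKM2 KO 1 (0.0897), without PKM2 KO 2 (0.0232), without WT 1 (0.0631) and when WT 3 was the only WT liver (0.163); with single livers left out it ran from -0.16 to 0.0897. In that last fit Trp53inp1 (-0.0603) and Gdf15 (-0.0268) turned negative. The members' median ran from 0.122 (without WT 2) to 0.305 (without PKM2 KO 3) when 1 liver was left out, and 1 to 4 members had no overlap, where 16.3% to 34.4% of all tested genes had none (12.1% with all livers). When WT 3 was the only WT liver it was 4 members and 66.9% of all tested genes. Calls over all genes were 3 with all livers, 3 to 51 with 1 liver left out (51 without WT 1 and 51 without WT 3), 5 without a filter, 99 with DESeq2, 5 with limma voom, 6 with robust quasi-likelihood and 163 when WT 3 was the only WT liver, and the cause was not tested.

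With 1 liver left out, medians ran from -0.026 to 0.0743 for regulators of p53, -0.149 to 0.115 for arrest, -0.0622 to 0.0774 for apoptosis, -0.0534 to 0.121 for DNA repair, 0.003 to 0.256 for metabolism, -0.135 to 0.126 for signalling, -0.159 to 0.214 for DREAM, -0.189 to 0.0312 for immediate early and 0.0456 to 0.167 for integrated stress genes. In the fit with WT 3 alone they were 0.327 (arrest), -0.044 (apoptosis), 0.35 (metabolism) and 0.104 (immediate early). The signalling median was 0.0304 with the stricter filter. DESeq2 called 1 signalling gene, 1 of all other targets, where it called 0.681% of the genes it adjusted.

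Correlations of the deviations of same-numbered livers from their genotype mean were -0.051, 0.027 and -0.092, and those of other pairs ran from -0.037 to 0.082. Deviations from a mean of 3 livers are tied to one another. These values therefore cannot decide whether same-numbered livers were handled together. With the replicate block 7 genes were called, 1 of them, Asns (adjusted p = 0.0224 in edgeR), an integrated stress gene, and no member. Phlda3 and Gdf15, with as few as 28 and 23 counts per library, had the largest counting errors of the members, 14.6% and 9.98%. Their livers varied by more than that, 35.5% in WT and 25.6% in knockout for Phlda3. For Gdf15 it was 77.9% in WT and 27.6% in knockout.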
